A study of Mus musculus with 12 samples.

Results

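Keratin genes, whose products build the filaments of epithelial cells, were measured in a sort of skin cells that the labels call SCA1+ fibroblasts. They were taken as every gene whose symbol is Krt followed by a number, with or without a letter a to c, which gave 55 of the 25239 genes in the table. Of these, 27 lie on chromosome 11 between 99232761 and 100269951 and 28 on chromosome 15 between 101348315 and 102032026, in mm10. All libraries came from back skin of wild type male C57BL/6 mice at 8 weeks of age, taken 16 h, 1.5 d or 3 d after full-thickness wounding with a 4 mm punch, or left unwounded (NW). Each group had 3 libraries from 3 mice. Skin was digested with liberase, and live cells positive for SCA1 and negative for the leukocyte marker CD45 and the endothelial marker CD31 were sorted, with no marker against epithelium. The labels do not give the number of cells sorted.

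Keratins are the intermediate filament proteins of epithelia and work in pairs of an acidic type I chain and a basic type II chain. The mouse genes of type I lie on chromosome 11, apart from Krt18, and those of type II on chromosome 15. Basal cells of the epidermis and hair follicle make the pair Krt5 and Krt14, and many of them also Krt15, a marker of the hair follicle bulge and of resting basal cells. Cells that leave the basal layer switch to Krt1 and Krt10. Krt6a, Krt6b, Krt16 and Krt17 are made in hair follicles and are known for their induction in keratinocytes at a wound edge. SCA1, the product of Ly6a, is found on dermal fibroblasts and also on keratinocytes of the interfollicular epidermis and the upper hair follicle.

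The libraries held between 26389453 and 43493475 counts, and levels are given as CPM, counts divided by a library total that was scaled by TMM, a normalisation of library composition. On that scale 3 counts make 0.0664 to 0.122 CPM in a library. Keratins took 0.933% ± 0.231 of counts at 16 h, 0.526% ± 0.149 at 1.5 d and 0.684% ± 0.598 at 3 d, against 2.45% ± 0.826 in NW (SD, n = 3 each). The 3 d libraries spread most, between 0.0759% in replicate 1 and 1.27% in replicate 3. All 8 keratinocyte markers listed (Krt5, Krt14, Trp63, Cdh1, Epcam, Dsp, Perp and Sfn) had counts in every group, and their summed level lay between 6429 and 11327 CPM at 16 h, 3514 and 6218 CPM at 1.5 d, and 723 and 10686 CPM at 3 d, against 13098 to 23916 CPM in NW. The summed level of 6 fibroblast markers was above that in each group, with a lowest value of 24574 CPM at 16 h. In such bulk libraries fewer keratinocytes and less keratin RNA per keratinocyte cannot be told apart. The keratins were also expressed as ratios to Krt14 in the same library, which compare genes within the keratin signal. A lower ratio can come from less of the gene or from more Krt14 beside it, and the ratio alone cannot tell these apart. Krt14 itself took 52.9% ± 0.544 of keratin counts per kilobase of exon at 16 h, 60.5% ± 0.807 at 1.5 d and 54.8% ± 4.36 at 3 d, against 33.0% ± 2.95 in NW.

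The 55 genes held 4087160 counts in all, and 3 basal genes took 3039873 of them. The 9 genes of differentiated cells held 656477 counts and the 4 wound keratins 362206. Far below these stood 10 genes of the root sheaths and infundibulum with 21003, 6 simple epithelial keratins with 5805 and 16 hair shaft keratins with 1540 counts. The 3 mucosal and corneal keratins held 102 counts and 4 further genes 154. In all, 12 genes had no count in any library, 7 of them of the hair shaft, and 21 had more than 100 counts over all libraries. The filter on low counts left 24 keratins for testing, so that the counts of calls below cover those 24 and not the whole family.

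Most of the keratins called after wounding were lower than in NW, and Krt6a and Krt6b were higher at all 3 times. A gene was called at an edgeR quasi-likelihood p under 0.05 after Benjamini-Hochberg adjustment over all 14901 genes tested. Among the 4 groups 13 of the 24 keratins were called, against 29.7% of all genes. At 16 h, 11 keratins were called against NW, 2 higher and 9 lower, where 24.7% of all genes were called, 13.5% higher and 11.2% lower. At 1.5 d, 9 were called, 2 higher and 7 lower, against 24.5% of all genes, 13.7% higher and 10.8% lower. At 3 d, 9 were called, 3 higher and 6 lower, against 21.1% of all genes, 12.0% higher and 9.15% lower. The median log2 change of the 24 keratins was -2.25 at 16 h, -2.52 at 1.5 d and -1.88 at 3 d, and that of all genes tested was -0.0369, 0.0143 and 0.00214. Without replicate 1 of 16 h the keratins called at that time were 7 in place of 11, and the replicates came from different mice.

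**Figure D1:**
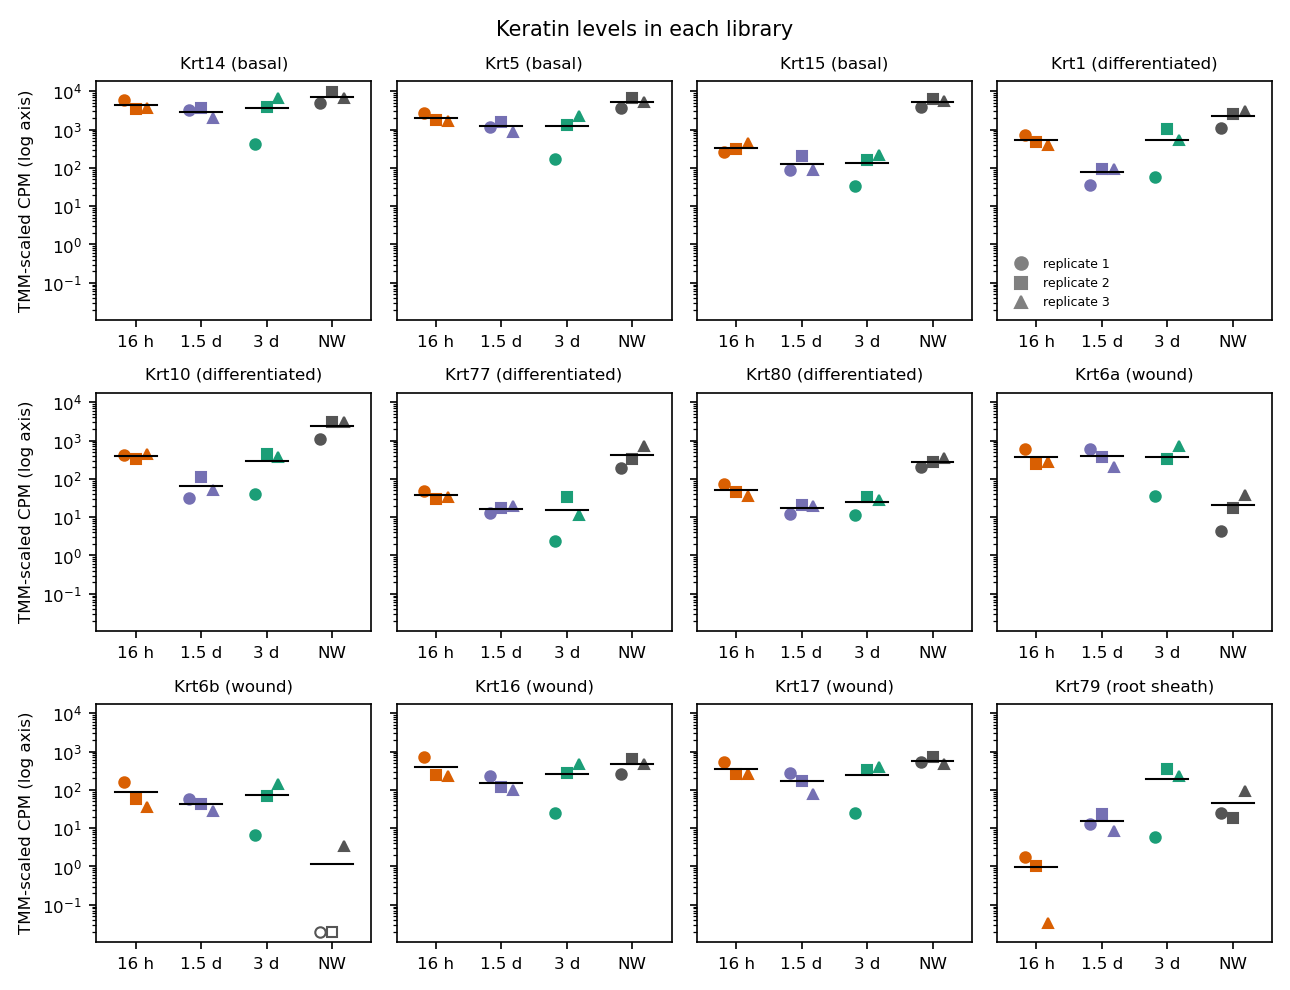
Levels of 12 keratin genes in each library, as TMM-scaled CPM on a log axis, in wounds at 16 h, 1.5 d and 3 d and in unwounded skin (NW); symbols mark replicates, black lines group means (n = 3), and open symbols at the bottom libraries with no count. Krt15 lay at or below 437 CPM in every wound library and between 3979.9 and 6258 CPM in NW, while Krt6a lay at or above 35.7 CPM in the wounds and at or below 39.0 CPM in NW.

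Krt14, the type I keratin of basal cells, was the most abundant member and did not pass the test. It stood at 5992, 3423 and 3634 CPM at 16 h, at 3220.2, 3643 and 1994 CPM at 1.5 d, and at 411, 3791 and 6705 CPM at 3 d, against 5070.3, 9349 and 6769 CPM in NW. The groups overlapped at 16 h and 3 d, and replicate 1 of 3 d was far below all other libraries. Its log2 change against NW was -0.70 at 16 h (edgeR adjusted p = 0.465), -1.26 at 1.5 d (adjusted p = 0.182) and -0.96 at 3 d (adjusted p = 0.329). Its type II partner Krt5 stood at 2646, 1729 and 1701 CPM at 16 h, at 1157, 1600.5 and 877 CPM at 1.5 d, and at 169, 1284 and 2265 CPM at 3 d, against 3564, 6498 and 5317 CPM in NW. Every wound library was below every NW library for Krt5. It fell by 2.08 on the log2 scale at 1.5 d (edgeR adjusted p = 0.0288) and by 2.05 at 3 d (adjusted p = 0.0345), and changed by -1.34 at 16 h (adjusted p = 0.130). The call at 1.5 d was lost without any 1 of 4 libraries (1.5 d replicates 1 and 3, NW replicates 2 and 3; adjusted p up to 0.107), and that at 3 d without any 1 of 3 (3 d replicate 2, NW replicates 2 and 3; adjusted p up to 0.0951). With no filter on low counts neither call held (adjusted p = 0.0646 at 1.5 d and 0.0764 at 3 d), and DESeq2 also called Krt5 at 16 h (adjusted p = 0.0468).

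Krt15 changed far more than its basal partners. It stood at 256, 317 and 437 CPM at 16 h, at 86.6, 208 and 87.5 CPM at 1.5 d, and at 32.8, 159 and 216 CPM at 3 d, against 3979.9, 6258 and 5454 CPM in NW. No wound library came near the NW libraries. Krt15 fell, with log2 changes of -3.96 at 16 h (edgeR adjusted p = 5.46e-04), -5.36 at 1.5 d (adjusted p = 1.31e-04) and -5.26 at 3 d (adjusted p = 1.44e-04), and every call held without any 1 library.

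Ratios between genes are given per kilobase of exon, as a percent of Krt14 per kilobase. Krt5 stood at 36.8% ± 2.49 of Krt14 at 16 h, 32.2% ± 3.62 at 1.5 d and 28.3% ± 3.26 at 3 d, against 56.8% ± 3.91 in NW (SD, n = 3 each). All 9 wound libraries lay below all 3 NW libraries. The difference of wounds from NW was -0.82 in log2 ratio (exact permutation test, two-sided, p = 0.00455, the smallest that 9 libraries against 3 allow). Among the 3 wound times the ratio also differed (exact permutation p = 0.0393). For Krt15 the ratio was 8.53% ± 3.93 at 16 h, 4.26% ± 1.51 at 1.5 d and 5.14% ± 2.51 at 3 d, against 75.3% ± 7.35 in NW. Again all 9 wound libraries lay below NW, 14.1-fold on average (exact permutation p = 0.00455), while the wound times did not differ beyond their spread (exact permutation p = 0.268).

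Every keratin of differentiated cells that was called after wounding was lower, and Krt1 and Krt10 were lowest at 1.5 d. Of 7 tested, 3 were called lower at 16 h, 4 at 1.5 d and 3 at 3 d, and none was called higher, where 11.2%, 10.8% and 9.15% of all genes were called lower. Krt1, the type II keratin of spinous cells, stood at 726, 482 and 385 CPM at 16 h, at 36.3, 95.8 and 95.9 CPM at 1.5 d, and at 58.2, 1005 and 525 CPM at 3 d, against 1084, 2519 and 3003 CPM in NW. Each wound library was below NW, with 1.5 d lowest as a group and replicate 1 of 3 d close to it. Krt1 fell by 4.86 on the log2 scale at 1.5 d (edgeR adjusted p = 0.00131), and changed by -2.05 at 16 h (adjusted p = 0.0558) and -2.06 at 3 d (adjusted p = 0.0611). DESeq2 called it at 16 h and 3 d as well, with adjusted p of 0.0377 and 0.0428, and edgeR called it at 3 d when scaled to library totals (adjusted p = 0.0446). Its type I partner Krt10 stood at 422, 333 and 452 CPM at 16 h, at 32.5, 112 and 51.2 CPM at 1.5 d, and at 39.1, 452 and 362 CPM at 3 d, against 1098, 3070.5 and 3118 CPM in NW. The wound libraries did not overlap NW. Krt10 fell, with log2 changes of -2.59 at 16 h (edgeR adjusted p = 0.0181), -5.21 at 1.5 d (adjusted p = 7.01e-04) and -3.09 at 3 d (adjusted p = 0.0093). The call at 16 h was lost without replicate 1 or 2 of 16 h or replicate 3 of NW (adjusted p up to 0.0713).

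Krt77, a keratin of human eccrine sweat ducts that mouse epidermis also makes, and Krt80, a widely expressed type II keratin of differentiating epithelia, went the same way. Krt77 stood at 47.1, 30.6 and 34.2 CPM at 16 h, at 12.8, 17.2 and 19.5 CPM at 1.5 d, and at 2.44, 33.6 and 11.4 CPM at 3 d, against 196, 331 and 733 CPM in NW. It fell, with log2 changes of -3.49, -4.67 and -4.73 at the 3 times (edgeR adjusted p = 0.00389, 0.001 and 0.00105). Krt80 stood at 71.3, 44.1 and 35.9 CPM at 16 h, at 12.0, 20.5 and 19.9 CPM at 1.5 d, and at 11.6, 34.2 and 27.8 CPM at 3 d, against 206, 269.9 and 345 CPM in NW. It fell as well, with log2 changes of -2.44, -3.97 and -3.48 (edgeR adjusted p = 9.25e-04, 5.95e-05 and 1.31e-04). For both genes all wound libraries were below all NW libraries. Krt2, a late keratin of the upper epidermis, had 162 counts in replicate 3 of 3 d alone and 77 over the NW libraries, and Krt9, a keratin of footpad skin, had none.

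As ratios to Krt14, Krt1 and Krt10 were again lowest at 1.5 d. Summed per kilobase, the 9 genes stood at 17.8% ± 2.06 of Krt14 at 16 h, 4.58% ± 2.31 at 1.5 d and 19.9% ± 9.60 at 3 d, against 55.2% ± 21.0 in NW. Krt10 alone stood at 8.01% ± 2.22 of Krt14 at 16 h, 1.83% ± 0.887 at 1.5 d and 7.36% ± 2.72 at 3 d, against 27.6% ± 10.04 in NW. Its ratio was lower in all 9 wound libraries than in NW (difference -2.56 in log2 ratio, exact permutation p = 0.00909) and differed among the wound times (exact permutation p = 0.0214). Without replicate 2 or 3 of NW the p for wounds against NW was 0.0545. The Krt1 ratio was 8.62% ± 1.23 at 16 h, 2.01% ± 1.30 at 1.5 d and 11.4% ± 6.68 at 3 d, against 21.7% ± 8.43 in NW. For Krt1, 8 of 9 wound libraries lay below NW (difference -1.97, exact permutation p = 0.0409), and the wound times differed (exact permutation p = 0.025). The p for wounds against NW was above 0.05 when any of 6 libraries was left out (1.5 d replicate 2 or 3, 3 d replicate 3, or any NW replicate; p between 0.0545 and 0.127), and was 0.182 with Krt5 as the denominator. The Krt77 ratio was lower in all 9 wound libraries (difference -3.13, exact permutation p = 0.00455).

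**Figure D2:**
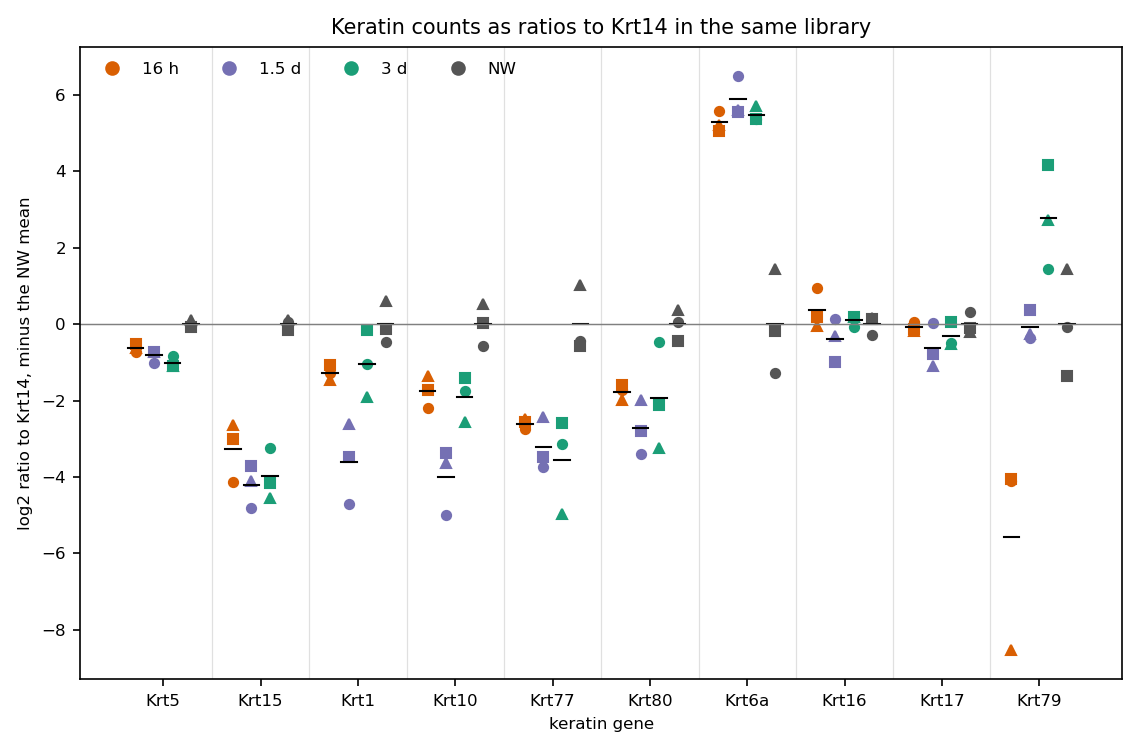
Counts of 10 keratins as log2 ratios to Krt14 in the same library, minus the mean of the 3 NW libraries, by gene; colours mark groups, symbols replicates (circle 1, square 2, triangle 3) and black lines group means. Krt15 and Krt77 lie below 0 and Krt6a above 0 in all 9 wound libraries, Krt16 and Krt17 scatter around 0, and Krt79 runs from far below 0 at 16 h to above 0 at 3 d.

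Promoter sequences of 3 keratins on these chromosomes are shown because their genes moved by different amounts, Krt10 and Krt77 strongly and Krt5 less. They are RefSeq windows from 250 bases before to 50 after the start of each gene in GRCm38.p6, the patch release of mm10, all read 5′ to 3′ on the minus strand, at chr11:99389315-99389614 for Krt10, chr15:101869656-101869955 for Krt77 and chr15:101712856-101713155 for Krt5.
Krt10: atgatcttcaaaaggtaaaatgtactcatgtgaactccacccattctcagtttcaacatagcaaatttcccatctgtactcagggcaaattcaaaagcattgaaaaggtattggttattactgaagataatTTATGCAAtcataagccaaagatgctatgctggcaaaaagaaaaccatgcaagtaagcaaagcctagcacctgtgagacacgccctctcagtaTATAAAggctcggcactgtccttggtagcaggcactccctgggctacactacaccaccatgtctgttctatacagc
Krt77: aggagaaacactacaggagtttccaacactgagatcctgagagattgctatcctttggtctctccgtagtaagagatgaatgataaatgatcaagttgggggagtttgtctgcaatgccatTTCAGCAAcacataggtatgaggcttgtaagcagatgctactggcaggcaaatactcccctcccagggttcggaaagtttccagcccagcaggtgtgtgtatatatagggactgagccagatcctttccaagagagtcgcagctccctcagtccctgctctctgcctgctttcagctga
Krt5: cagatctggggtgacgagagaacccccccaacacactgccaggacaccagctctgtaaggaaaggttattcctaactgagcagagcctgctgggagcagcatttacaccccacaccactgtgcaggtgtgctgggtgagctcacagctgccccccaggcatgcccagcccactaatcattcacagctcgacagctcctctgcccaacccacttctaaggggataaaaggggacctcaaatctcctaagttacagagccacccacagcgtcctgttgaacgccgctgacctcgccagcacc
Capitals mark matches, on either strand, to TTGCNNAA, letters bound by C/EBP factors of differentiating epidermis, and to TATAAA. The first stood at -119 in Krt10 and at -129 in Krt77, counted from the start site, and the second at -26 in Krt10. The AP-1 letters TGANTCA, also searched on both strands, were found in none of the 3 windows. Of 32851 promoters of the same length, 10.8% held TTGCNNAA, 13.6% TATAAA and 7.81% TGANTCA. Among keratins not shown, TTGCNNAA also stood in Krt23, which was not called, Krt36, called lower at 16 h, and Krt40, which had no count. TATAAA stood in many of the other keratin windows, such as those of Krt12, Krt20, Krt25, Krt32 and Krt76. TGANTCA stood in windows of Krt13, which had no count. Whether these letters bear on the changes was not tested. Promoters of 36 of the 55 genes were matched, 35 of them with a start within 10 bases of the gene's 5′ end in the count table. That of Krt14 starts 1480 bases inside the gene and is not shown. Krt1, Krt6a, Krt6b, Krt15, Krt16, Krt17 and Krt80 were among the genes with no match.

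Of the wound keratins, Krt6a and Krt6b were higher at every time, and Krt16 and Krt17 were not called. Krt6a stood at 609, 241 and 283 CPM at 16 h, at 617, 361 and 206 CPM at 1.5 d, and at 35.7, 330.0 and 738 CPM at 3 d, against 4.42, 17.6 and 39.0 CPM in NW. The NW libraries were below all wound libraries except replicate 1 of 3 d, the library with the fewest keratin counts, which lay just below NW replicate 3. Krt6a rose by 4.21 on the log2 scale at 16 h (edgeR adjusted p = 0.00719), 4.28 at 1.5 d (adjusted p = 0.00667) and 4.17 at 3 d (adjusted p = 0.00856). Krt6b stood at 161, 59.3 and 35.8 CPM at 16 h, at 56.7, 43.1 and 28.9 CPM at 1.5 d, and at 6.80, 70.6 and 146 CPM at 3 d, while it had no count in 2 NW libraries and 3.51 CPM in the other. All 9 wound libraries were above NW. Krt6b passed at each time (edgeR adjusted p = 0.0073, 0.0147 and 0.00965), with fitted changes that depend on how the empty NW libraries are treated; with no filter on low counts the call at 1.5 d was lost (adjusted p = 0.0511). Krt6a and Krt6b share sequence: 36.2% of the 75-base windows of a Krt6a transcript also occur in Krt6b, and the counting left out fragments that align to several places, so their separate levels are uncertain. How many fragments this concerned was not measured. Of the windows of Krt16, 6.44% also occur in Krt14.

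Krt16 and Krt17, type I partners of the Krt6 chains, were already abundant in NW. Krt16 stood at 735, 247 and 224 CPM at 16 h, at 225, 116 and 102 CPM at 1.5 d, and at 24.7, 273 and 482 CPM at 3 d, against 262, 654 and 478 CPM in NW. Krt17 stood at 518, 258 and 267 CPM at 16 h, at 270.0, 175 and 77.4 CPM at 1.5 d, and at 24.2, 327 and 387 CPM at 3 d, against 523, 717 and 484 CPM in NW. For Krt16 the 1.5 d libraries all lay below NW, and the 16 h and 3 d libraries overlapped NW. For Krt17 the 1.5 d and 3 d libraries all lay below NW, and the 16 h libraries overlapped NW.

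Within the keratin signal the 4 wound keratins parted into these same pairs. The Krt6a ratio was 6.34% ± 1.25 of Krt14 per kilobase at 16 h, 10.006% ± 3.98 at 1.5 d and 7.21% ± 1.02 at 3 d, against 0.216% ± 0.197 in NW. All 9 wound libraries, replicate 1 of 3 d among them with 6.63%, lay above the NW maximum of 0.439% (difference 5.54 in log2 ratio, 46.7-fold, exact permutation p = 0.00455). Leaving out 1 library gave 29.98-fold, without replicate 1 of NW, to 76.96-fold, without replicate 3 of NW. The wound times did not differ beyond their spread (exact permutation p = 0.171). The Krt16 ratio was 9.37% ± 3.57 at 16 h, 5.58% ± 2.08 at 1.5 d and 7.46% ± 0.747 at 3 d, against 7.03% ± 1.18 in NW. It did not pass (wounds minus NW 0.02 in log2 ratio, exact permutation p = 0.855), and with Krt5 as the denominator it was 0.84 higher in wounds (exact permutation p = 0.0364). The Krt17 ratio was 8.69% ± 0.779 at 16 h, 6.30% ± 2.64 at 1.5 d and 7.49% ± 1.79 at 3 d, against 9.27% ± 1.88 in NW (wounds minus NW -0.34, exact permutation p = 0.205). Of the 13 keratin ratios tested in this way, 8 had an unadjusted p under 0.05 for wounds against NW and 5 among the wound times. One of the 8 was Krt18, which had no count in NW and in 2 wound libraries, so that its ratio there is set by the added 0.5 count and the Krt14 count alone and its p is not read.

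**Figure D3:**
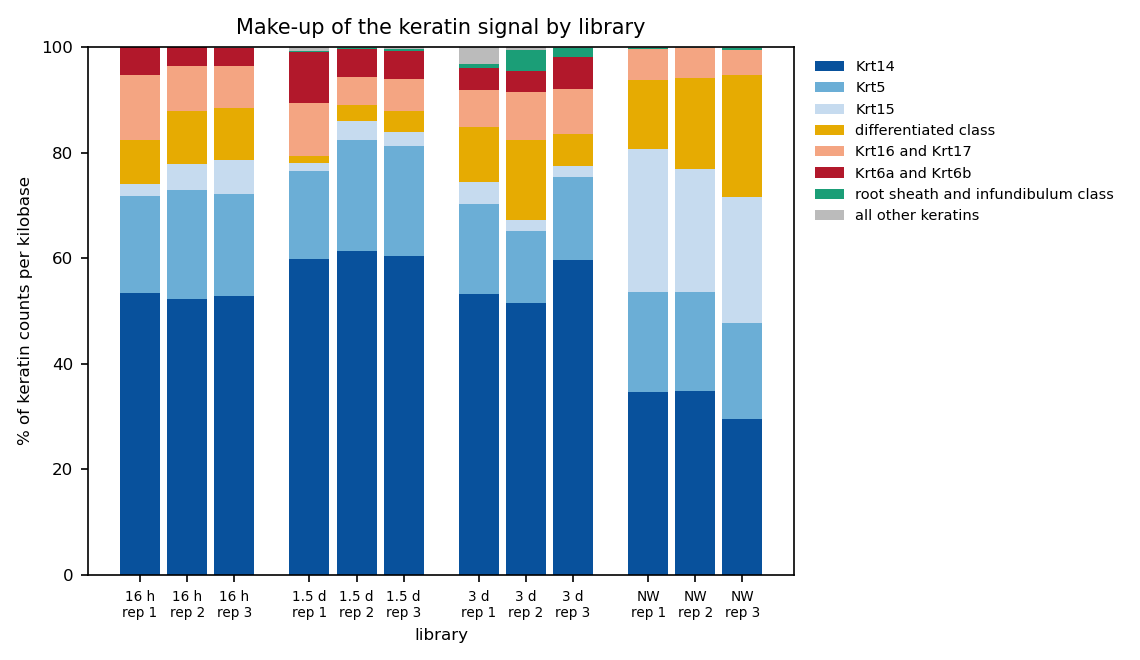
Make-up of the keratin counts of each library, in percent of all keratin counts per kilobase of exon, for the 3 wound times and NW with 3 replicates each. Krt15 takes 2.59% to 4.50% on average in the wound groups and 24.8% in NW, Krt6a and Krt6b together 4.09% to 6.72% in the wound groups and 0.0715% in NW, and the differentiated class is smallest at 1.5 d (2.78%).

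A fit across all genes with the Krt14 count as the library scale tested the same ratios at each time. It called 9 of 23 keratins among the 4 groups, against 26.3% of all genes. At 16 h it called 4 (2 higher, 2 lower), where 1.57% of all genes were called, 1.39% higher and 0.181% lower. At 1.5 d it called 4 (2 higher, 2 lower), against 3.77% of all genes, 3.63% higher and 0.134% lower. At 3 d it called 7 (4 higher, 3 lower), against 53.7% of all genes, 53.3% higher and 0.389% lower. This scale moved the median log2 change of all genes to 0.662, 1.28 and 2.61 at the 3 times, while that of the keratins was -1.78, -1.73 and -0.934. Krt6a and Krt6b were higher at all 3 times on this scale too, and Krt6a lost its call at 16 h without any 1 NW library (adjusted p up to 0.178) and at 1.5 d without NW replicate 1 or 2 (adjusted p up to 0.0579). Krt15 was lower at 1.5 d (-4.14, edgeR adjusted p = 0.0197) and 3 d (-3.87, adjusted p = 0.00743) and changed by -3.14 at 16 h (adjusted p = 0.154). Its call at 1.5 d was lost without any 1 library of 1.5 d or NW (adjusted p up to 0.166). Krt10 was lower at 1.5 d (-3.92, adjusted p = 0.0276), and that call was lost without any 1 of 9 libraries (the 3 each of 16 h, 1.5 d and NW). Krt77 was called lower at 3 d alone, and Krt5, Krt1 and Krt80 were called at no time. The permutation tests above set all 9 wound libraries together against NW, whereas this fit took each time alone.

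The library of 3 d with few keratin counts weighed on those numbers. Without replicate 1 of 3 d the Krt14-scaled fit called 11 keratins at 16 h, 3 higher and 8 lower, and 10 at 1.5 d, 3 higher and 7 lower. Krt15 at 16 h then had an adjusted p of 9.00e-05 in edgeR. Without replicate 3 of 3 d it called 8 at 1.5 d. Without any 1 NW library or 1 library of the tested time it called 1 or 2 in most cases at 16 h and 1.5 d, the exception being replicate 1 of 16 h, and without replicate 2 of NW 4 at 3 d.

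Krt79 had its own course. This type II keratin marks the infundibulum and sebaceous duct of the mouse hair follicle. It stood at 1.77, 1.05 and 0.0335 CPM at 16 h, at 12.96, 24.0 and 8.61 CPM at 1.5 d, and at 5.74, 350.4 and 226 CPM at 3 d, against 24.8, 18.7 and 93.9 CPM in NW. The 16 h libraries were below all others, and 2 of the 3 d libraries were above all others. Krt79 fell by 5.58 on the log2 scale at 16 h (edgeR adjusted p = 0.00755) and did not pass at 1.5 d (-1.59, adjusted p = 0.297) or 3 d (2.08, adjusted p = 0.187). Without replicate 1 of 3 d the last change was 2.66 (adjusted p = 0.0453). Its ratio to Krt14 was 0.0167% ± 0.0138 at 16 h, 0.408% ± 0.115 at 1.5 d and 3.83% ± 3.35 at 3 d, against 0.568% ± 0.508 in NW. The ratio differed among the wound times (exact permutation p = 0.00357, the smallest that 3 groups of 3 allow), with no overlap between 16 h, 1.5 d and 3 d. The 9 wound libraries as a whole did not pass against NW (exact permutation p = 0.714).

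The root sheath keratins proper were all but absent beside Krt79, whose counts made up nearly all of the 21003 of its class. Of the 16 hair shaft keratins, only Krt32 and Krt36 held enough counts to be tested. Krt32, a type I keratin of the hair cuticle, had between 0 and 31 counts in the wound libraries, against 285, 469 and 259 counts in NW. It was called lower at 16 h, 1.5 d and 3 d (edgeR adjusted p = 0.0245, 0.0121 and 0.00832). Krt36, a hair keratin also found in nail and tongue, had no count at 16 h and 84, 97 and 124 counts in NW, and was called lower at 16 h (edgeR adjusted p = 0.00491). The summed level of 5 markers of the hair matrix and shaft (Tchh, Padi3, Hoxc13, Msx2 and Lef1) moved with it, at 0.0671 to 2.35 CPM at 16 h, 0.0443 to 4.06 CPM at 1.5 d and 0.936 to 6.07 CPM at 3 d, against 8.09 to 13.5 CPM in NW, with Padi3 at 0 at 16 h, at 3 d and in NW. None of the 3 tested was called, and their part in the result was not tested.

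Simple epithelial keratins, the chains of single-layered epithelia and of some follicle cells, were scarce. Krt19, a type I keratin of the hair follicle bulge, stood at 0, 0.301 and 0.0671 CPM at 16 h, at 4.70, 0.936 and 2.92 CPM at 1.5 d, and at 14.8, 23.0 and 15.1 CPM at 3 d, against 1.95, 3.06 and 0 CPM in NW. All 3 d libraries lay above all others. It rose by 3.40 on the log2 scale at 3 d (edgeR adjusted p = 0.0479) and fell by 3.69 at 16 h (adjusted p = 0.0493). Both calls were close to the threshold: the call at 3 d was lost without any 1 of 8 libraries (all those of 1.5 d and 3 d, and NW replicates 1 and 2) and that at 16 h without any 1 of 10. With no filter on low counts neither held (adjusted p = 0.0749 at 3 d and 0.0794 at 16 h), and at 3 d it was lost with library totals as the scale (adjusted p = 0.0525). Unlike most keratins, Krt19 was not low in replicate 1 of 3 d, and its ratio to Krt14 there was 4.37%, against 0.736% and 0.274% in the other two. Among the wound times the ratio differed (exact permutation p = 0.00357).

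Krt23, a type I keratin of several epithelia, stood at 0.667, 2.20 and 3.52 CPM at 16 h, at 30.3, 1.33 and 9.03 CPM at 1.5 d, and at 3.95, 1.50 and 4.88 CPM at 3 d, against 2.78, 8.65 and 11.4 CPM in NW, and was not called. Krt20, a keratin of Merkel cells, was lower at 16 h (log2 change -1.93, edgeR adjusted p = 0.0354). The 3 Merkel cell markers listed, Krt20 itself among them, summed to between 1.33 and 1.91 CPM at 16 h, 1.45 and 3.23 CPM at 1.5 d, and 12.2 and 16.5 CPM at 3 d, against 5.66 to 8.42 CPM in NW. Most of the sum at 3 d in 2 of 3 libraries was Piezo2, a mechanically gated ion channel that other cells also make, at 14.6, 5.35 and 8.27 CPM at 3 d, against 1.83, 1.38 and 0.928 CPM in NW, while Krt20 lay between 1.91 and 8.96 CPM at 3 d and between 4.28 and 7.49 CPM in NW. Piezo2 was called higher at 3 d (log2 change 2.77, edgeR adjusted p = 0.0419), and Krt20 was not called there (-0.19, adjusted p = 0.865). The defining Merkel cell factor Atoh1 had 3 counts in 1 library and none in the other 11. Krt8 had at most 26 counts in a library. Krt18 had between 0 and 26 counts in the wound libraries and none in NW, and was not called at 16 h, 1.5 d or 3 d (edgeR adjusted p = 0.0639, 0.121 and 0.164). Markers of the mesothelium, which makes Krt8, Krt18 and Krt19, summed to between 0.829 and 4.80 CPM over all libraries.

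Other genes of keratinocytes were called lower as well, chiefly at 1.5 d and 3 d. The shares of all genes called lower were 11.2% at 16 h, 10.8% at 1.5 d and 9.15% at 3 d. Of 9 epidermal regulators and epithelial markers, 1 was called lower at 16 h, 9 at 1.5 d and 8 at 3 d, so that the count at 16 h was near that share. Sfn, the epithelial 14-3-3 protein, averaged 568 ± 236 CPM at 16 h, 307 ± 103 at 1.5 d and 361 ± 298 at 3 d, against 2476 ± 1050 in NW. Of 14 genes of desmosomes and other junctions, 2, 11 and 8 were called lower at the 3 times and none higher, again near the share of all genes at 16 h. Perp, a desmosome protein controlled by p63, averaged 661 ± 229 CPM at 16 h, 255 ± 52.2 at 1.5 d and 365.0 ± 283 at 3 d, against 2152 ± 600.1 in NW. Of 9 genes that anchor basal cells to the basement membrane, 1, 2 and 3 were called lower and none higher, with the count at 16 h again near the share of all genes. Dst was lower at all 3 times, Col17a1 at 1.5 d and 3 d and Itga3 at 3 d (edgeR adjusted p between 0.00173 and 0.0280). The hemidesmosome integrin Itga6 was not called (edgeR adjusted p = 0.820, 0.0825 and 0.0719). At 3 d Dst lay between 138 and 212 CPM, while Krt14 lay between 411 and 6705 CPM. How much of the Dst count came from keratinocytes was not tested.

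Per Krt14, single genes are given by their ranges. Sfn lay between 12.1% and 14.9% of Krt14 per kilobase at 16 h, 9.14% and 13.5% at 1.5 d, and 10.2% and 12.5% at 3 d, against 32.3% to 41.9% in NW. Perp lay between 12.0% and 15.5% at 16 h, 6.28% and 10.3% at 1.5 d, and 7.84% and 11.2% at 3 d, against 25.9% to 30.6% in NW. For both, the NW range did not overlap any wound range. Itga6 lay between 2.07% and 2.71% at 16 h, 1.07% and 1.83% at 1.5 d, and 0.971% and 1.77% at 3 d, against 1.45% to 2.10% in NW, so that each wound range overlapped NW. Col17a1, a collagen of hemidesmosomes, lay between 4.83% and 5.90% at 16 h, 2.38% and 4.69% at 1.5 d, and 2.40% and 4.03% at 3 d, against 5.04% to 6.68% in NW, and overlapped NW at 16 h alone. Itga3, an integrin that binds laminin, lay between 0.494% and 1.06% at 16 h, 0.601% and 0.648% at 1.5 d, and 0.196% and 0.350% at 3 d, against 0.444% to 0.577% in NW, above NW at 1.5 d and below it at 3 d. The ranges of Dst, a linker of hemidesmosomes to filaments, overlapped NW at each time, but reached 2.71% at 3 d, against at most 0.391% in NW. None of these ranges is a test. The Krt14-scaled fit called none of the 9 regulators at any time, none of the 14 junction genes at 16 h and 1.5 d and 1 lower at 3 d, and of the 9 anchoring genes 1 higher, at 3 d. For keratins this fit made more calls at 16 h and 1.5 d without replicate 1 of 3 d. Calls in these lists were not counted without that library, so a missing call does not show an unchanged ratio.

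Of 15 tested genes of the cornified envelope, the protein shell of the outermost cells, 6 were called lower at 16 h and 7 each at 1.5 d and 3 d, against the same shares of all genes as above. The 2 called higher at 16 h were near the share of all genes called higher, 13.5%, and the 1 at 1.5 d was below that share, 13.7%. On the Krt14 scale none was called at 16 h and 1.5 d, and at 3 d 5 were higher and 2 lower, where 53.3% of all genes were called higher and 0.389% lower. Lor, the envelope protein loricrin, averaged 0.445 ± 0.139 CPM at 16 h, 0.271 ± 0.192 at 1.5 d and 0.325 ± 0.324 at 3 d, against 9.52 ± 12.9 in NW, where replicate 3 alone had 24.4 CPM. Krtdap, a secreted protein of differentiating keratinocytes, averaged 108 ± 32.8 CPM at 16 h, 51.5 ± 17.9 at 1.5 d and 85.3 ± 77.7 at 3 d, against 667 ± 449 in NW. Both were called lower at all 3 times, with log2 changes of -4.41, -5.11 and -4.86 for Lor and -2.63, -3.70 and -2.97 for Krtdap (edgeR adjusted p at most 0.0293). Tgm1 and Sprr2h, of the same list, had higher means in the wounds than in NW. Tgm1 averaged 29.5 ± 11.8 CPM at 16 h, 21.8 ± 9.19 at 1.5 d and 12.5 ± 4.35 at 3 d, against 5.85 ± 3.05 in NW. Sprr2h averaged 11.9 ± 8.87 CPM at 16 h, 6.33 ± 1.95 at 1.5 d and 7.47 ± 6.32 at 3 d, against 1.30 ± 1.55 in NW. Its lowest 3 d library had 0.326 CPM.

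The spread between replicates was smaller for the ratio to Krt14 than for the level in several keratins, and the spread of the level came largely from replicate 1 of 3 d. The SD of the log2 level within groups, pooled over the 4 groups, was 1.13 for Krt14, 1.05 for Krt5, 1.31 for Krt16 and 1.25 for Krt17. The SD of the log2 ratio to Krt14 was 0.135 for Krt5, 0.414 for Krt16 and 0.364 for Krt17. Without replicate 1 of 3 d, a setting added after seeing the data, the SD of the log2 level was 0.470 for Krt14, 0.441 for Krt5, 0.736 for Krt16 and 0.601 for Krt17, and that of the log2 ratio was 0.116 for Krt5, 0.435 for Krt16 and 0.381 for Krt17. For Krt15 the ratio then spread more than the level (0.524 against 0.488), as it did for Krt1 (0.795 against 0.698) and Krt77 (0.880 against 0.701). For Krt10 ratio and level then spread about alike (0.663 against 0.685). With all libraries the ratio spread less than the level for Krt15 (0.587 against 0.854), Krt1 (0.744 against 1.24) and Krt77 (0.843 against 1.08). Among junction and epithelial genes, the ratio of Sfn spread by 0.200 against 1.10 for its level. For Epcam, an epithelial adhesion protein, it was 0.257 against 1.05. Without replicate 1 of 3 d these were 0.201 against 0.546 and 0.264 against 0.434, and Perp had 0.266 against 0.393. Without that library the ratio was hardly tighter than the level for Cdh1 (0.680 against 0.683), Dsp (0.381 against 0.418) and Trp63 (0.441 against 0.474). In contrast, with all libraries the ratio spread more than the level for Krt80 (0.814 against 0.563), Krt23 (1.96 against 1.47) and Krt19 (2.73 against 2.42). The same held for the fibroblast genes Pdgfra (1.40 against 0.488) and Col1a1 (1.40 against 0.769) and for Ly6a, the gene of the sorted surface protein (1.25 against 0.345), and without replicate 1 of 3 d the ratios of these 3 spread by 0.826, 0.938 and 0.605. Ly6a lay between 869 and 2915 CPM in all 12 libraries.

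**Figure D4:**
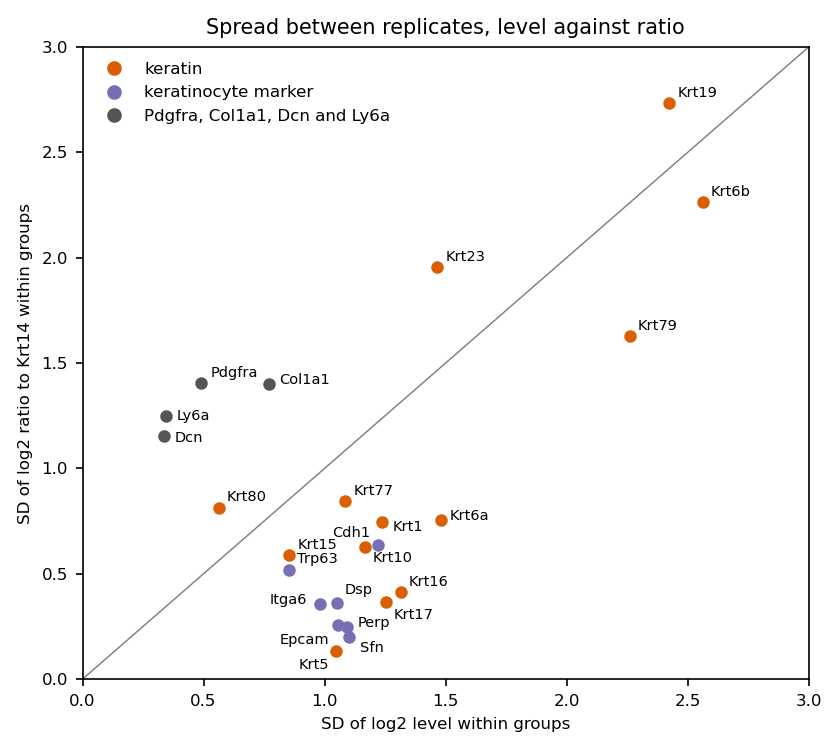
Spread between replicates of keratins, other keratinocyte markers, and Pdgfra, Col1a1, Dcn and Ly6a, as the SD within groups of the log2 level (x axis) and of the log2 ratio to Krt14 (y axis), pooled over the 4 groups; the grey line marks equal spread. Krt5 lies lowest at 0.135 on the y axis and 1.05 on the x axis, and Krt19, Krt23, Krt80 and the 4 genes in grey lie above the line.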

How the data were processed

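RNA of 12 sorted libraries was amplified with a SMART-Seq v4 kit and sequenced as paired ends, per the labels. The deposited table holds raw counts of fragments per gene symbol and, per the file headers, was made by the authors with featureCounts 2.0.0 over exons of an mm10 refGene annotation, without strand, so fragments aligning to several places or genes were not counted. STAR and SAMtools are named in the submitters' processing notes. The deposited exon length was used for values per kilobase. Levels are CPM with TMM factors. Genes passing filterByExpr (14901) were fitted by group over 12 libraries with edgeR 4.0.16 (robust quasi-likelihood, Benjamini-Hochberg), and again with effective library sizes in proportion to the Krt14 count (14900). Single ratios, log2((count + 0.5)/(Krt14 count + 0.5)), were compared by exact permutation of libraries. Krt14 and keratins averaging at least 5 CPM, listed markers and up to 4 genes of each companion list with the smallest p are named with values. Tgm1 and Sprr2h were named in addition, after seeing the data. The keratins and lists were chosen with earlier results of these data known. Alternatives were DESeq2 1.42.0, other scalings, filters, pseudocounts and denominators, a replicate block, and leaving out each library. The fit was tested on simulated counts. Precision limits from counts cover counting error only.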

Additional observations from a re-analysis of the deposited data

Results flagged for a closer look

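The ratio to Krt14 differed among the 3 wound times, by exact permutation tests of the 9 wound libraries, for 5 of the 13 keratins tested. The unadjusted p was 0.0393 for Krt5, 0.025 for Krt1, 0.0214 for Krt10, 0.00357 for Krt79 and 0.00357 for Krt19. Krt5 ratios averaged 36.8% of Krt14 per kilobase at 16 h, 32.2% at 1.5 d and 28.3% at 3 d, with overlap between 1.5 d and 3 d. Krt1 and Krt10 were lowest at 1.5 d, at 0.793% to 3.38% and 0.831% to 2.54%, and no 1.5 d library of either overlapped the other times. Krt79 and Krt19 were lowest at 16 h and highest at 3 d in every library.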

How the results depend on the processing

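With DESeq2, other scalings, filters, pseudocounts, Krt5 as denominator or the replicate block, every count of called keratins and every class sum kept its direction and stayed within 1.5 times its value, and no called change reversed. With DESeq2 the keratins called were 16 at 16 h, 12 at 1.5 d and 12 at 3 d. Leaving out 1 library gave 7 to 13 called keratins at 16 h, 8 to 13 at 1.5 d, 7 to 10 at 3 d and 9 to 15 among the 4 groups. On the Krt14 scale it gave 1 to 11 at 16 h, 1 to 10 at 1.5 d, 4 to 8 at 3 d and 7 to 13 among the groups. The cause was not tested. Among single genes, 77 values lost and 33 gained their call over all settings. Another 1392 either kept their call or were uncalled in both settings, so that number is not a count of calls that held. Replicate numbers do not pair the libraries: 2 of 18 same-number pairs correlated above 0.1, and 2 of 12 libraries correlated best with their own number. With the replicate block 11 keratins were called among the groups, 9 at each time, and on the Krt14 scale 8 among the groups and 4, 4 and 5 at the 3 times. Of single genes, the block ended the calls of Krt19 at 16 h (adjusted p = 0.0903) and 3 d (0.0580), and on the Krt14 scale those of Krt77 (0.0515) and Krt79 (0.110) at 3 d, and added Krt1 at 3 d (0.0419). Depth limits the keratins with few counts, and 3 libraries a group limit the rest.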
